A study of Mus musculus with 40 samples.

Results

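The genes described here were Tmem176a and Tmem176b, a pair of neighbouring genes, and 6 genes of the Ms4a family, Ms4a8a, Ms4a4c, Ms4a6b, Ms4a6c, Ms4a6d and Ms4a7, 8 of the 45706 genes in the deposited tables. They were chosen by symbol because, in earlier results from these libraries, some of them changed in opposite ways in neutrophils and in monocytes between blood and colon tumor. Those changes, and the blood levels they start from, are therefore given as a description with no test, and tests are given only for libraries that the choice did not use. TMEM176 and MS4A proteins are small proteins that cross the membrane several times, and the family includes CD20 of B cells and the beta chain of the IgE receptor. TMEM176A and TMEM176B form cation channels of intracellular vesicles and are known from dendritic cells, where they bear on antigen presentation. Several Ms4a genes are used as markers of monocytes and macrophages.

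RNA was sequenced from sorted neutrophils, monocytes, epithelial cells and stromal cells in 40 libraries, 10 groups of 4. The tumor-bearing mice carried Cdx2CreERT2 - Apc fl/fl, in which Cre is driven by the Cdx2 promoter, active in colon epithelium, and received tamoxifen at 25 mg/kg in a single injection at 8 to 10 weeks of age. Their strain is labelled as C57Bl6 mixed with a second strain, whereas the healthy mice were C57Bl6 with no transgene and no agent, so tumor, strain, allele and tamoxifen cannot be told apart wherever tumor-bearing and healthy mice were compared. Tumor-bearing mice gave neutrophils, monocytes, epithelial cells and stromal cells of colon tumors and neutrophils and monocytes of blood, and healthy mice gave epithelial cells and stromal cells of colon and neutrophils and monocytes of blood. Neutrophils were gated as CD45+ EpCAM- CD11b+ MHCII- Ly6G+ with low Ly6C, monocytes as CD45+ EpCAM- CD11b+ MHCII- Ly6G- with high Ly6C, epithelial cells as CD45- EpCAM+ and stromal cells as CD45- EpCAM-. By their titles, 1 library of neutrophils from blood of tumor-bearing mice and 3 libraries of monocytes from healthy blood pooled 2 animals. The ages of the healthy mice were not given in the sources used here.

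Library totals ran from 10717873 to 38002939 expected counts, with a median of 16338416, and mitochondrial genes took 5.34% to 83.9% of them. The summed neutrophil and monocyte markers separated neutrophils from monocytes, but the genes of the gates overlapped. Ly6g, of the neutrophil gate, overlapped in healthy blood at 1.47 to 8.28 RPKM in neutrophils and 1.25 to 5.93 RPKM in monocytes. Ly6c2, of the monocyte gate, did not overlap within blood or within tumor of the same mice. Across sources it did, at 0.645 to 5.21 RPKM in healthy blood neutrophils and 2.28 to 5.72 RPKM in tumor monocytes. The neutrophil receptor gene Csf3r stood at 51.6 to 363 RPKM in the neutrophil libraries and at no more than 20.4 RPKM in the monocyte libraries, and the monocyte receptor gene Ccr2 stood at 23.9 to 122 RPKM in monocytes and at no more than 0.491 RPKM in neutrophils. Markers of epithelial cells were present outside the epithelial groups. Their median level, as a percentage of the tumor epithelial mean over 15 genes, was 87, 11.6, 17.3 and 4.79 in tumor neutrophil replicates 1 to 4, 0.616, 19.6, 2.91 and 4.06 in tumor monocytes, 93.8, 47.6, 18.4 and 12.2 in tumor stromal cells and 0.498, 0.267, 0.236 and 14.9 in healthy stromal cells. In the blood libraries it did not exceed 0.206. Markers of fibroblasts, at a summed 355 to 2010 RPKM in healthy stromal cells, summed to 5.97 to 24 RPKM in tumor stromal cells, so the label "stromal" covered libraries of different makeup. Healthy epithelial replicate 4 and healthy stromal replicate 4, which carry the same animal code in their titles, stood apart for several of the genes below.

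On the mouse genome (GRCm38, mm10), Tmem176a lay on chromosome 6 from 48840919 to 48847071 on the plus strand and Tmem176b from 48833818 to 48841496 on the minus strand (ENSMUSG00000023367 and ENSMUSG00000029810). The pair overlapped head to head over 578 bases, and 81 exonic bases belonged to both, 2.13% of the exonic bases of Tmem176a and 3.42% of those of Tmem176b. The Ms4a genes lay in a cluster of 19 on chromosome 19, from 10962293 to 11640851. Within it Ms4a8a occupied 11067471 to 11081102, Ms4a7 11321039 to 11336146 and Ms4a6d 11586604 to 11604849 on the minus strand, and Ms4a4c occupied 11404770 to 11427246, Ms4a6c 11469366 to 11482192 and Ms4a6b 11516512 to 11531256 on the plus strand. Ms4a6c was the least certain of the counts. A minus-strand transcript, BE692007, covered 12027 bases of it, and 51.4% of the windows of 50 bases in its exons also occurred in another gene, most of them in BE692007. For Ms4a4c that share was 8.19%, nearly all with Ms4a4b, and for Ms4a6b and Ms4a6d it was 3.57% and 2.54%. For Tmem176a, Tmem176b and Ms4a7 it was 0.333%, 0.476% and 0.306%, and for Ms4a8a it was 0%. Whether the counting used strand is not given in the sources used here, so the reads of overlapping genes cannot be told apart.

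Across the 10 groups the genes fell into patterns of their own. Tmem176a and Tmem176b were spread widely over monocytes, epithelial cells and stromal cells, Ms4a4c and the 3 Ms4a6 genes were high in monocytes alone among the sorted groups, Ms4a8a was shared by monocytes and healthy epithelial cells, and Ms4a7 did not exceed 0.531 RPKM in any library. RPKM values are corrected for transcript length and so allow levels to be set against each other between genes. In all these bulk samples, fewer cells of a type and less RNA per cell cannot be told apart.

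**Figure D1:**
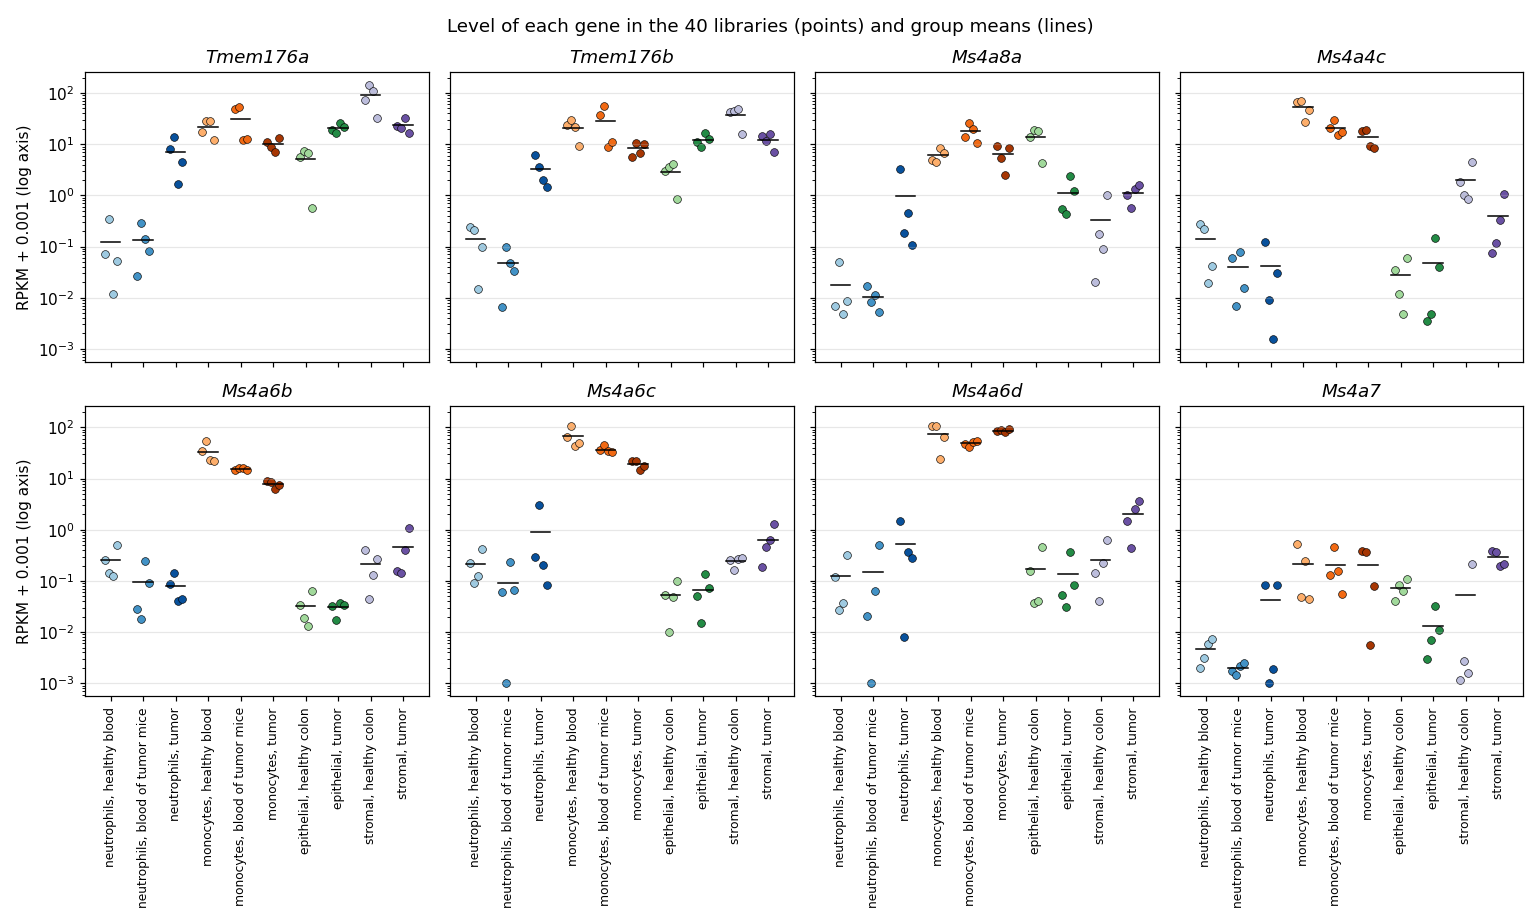
Level of each of the 8 genes (RPKM + 0.001, log axis) in the 40 libraries, 1 panel per gene, with groups along the horizontal axis, points for libraries and lines for group means. Ms4a4c, Ms4a6b, Ms4a6c and Ms4a6d stand highest in the 3 monocyte groups, whereas Tmem176a and Tmem176b are also high in stromal and epithelial cells and lie above the blood level in tumor neutrophils.

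Tmem176a was highest in healthy stromal cells, at 74.6, 143, 111 and 32.1 RPKM (90.2 ± 47.8, SD, n = 4). It followed at 31.5 ± 22.2 in monocytes from blood of tumor-bearing mice, 23.2 ± 6.39 in tumor stromal cells, 21.5 ± 8.23 in healthy blood monocytes and 20.6 ± 3.86 in tumor epithelial cells, and each of these 5 groups overlapped the next. Tumor monocytes (9.96 ± 2.61), tumor neutrophils (6.98 ± 5.19) and healthy epithelial cells (5.09 ± 3.1) formed a lower tier, of which each overlapped the next, and which did not overlap tumor epithelial cells above it. Blood neutrophils stood apart below all others, at 0.133 ± 0.112 in tumor-bearing and 0.12 ± 0.154 in healthy mice. Tmem176b ran from 38 ± 15 RPKM in healthy stromal cells to 0.0457 ± 0.0382 in neutrophils from blood of tumor-bearing mice. Over the 40 libraries the log2(RPKM + 1) values of the pair had a Pearson r of 0.971, a description in which the points share cell types, preparation and depth.

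**Figure D2:**
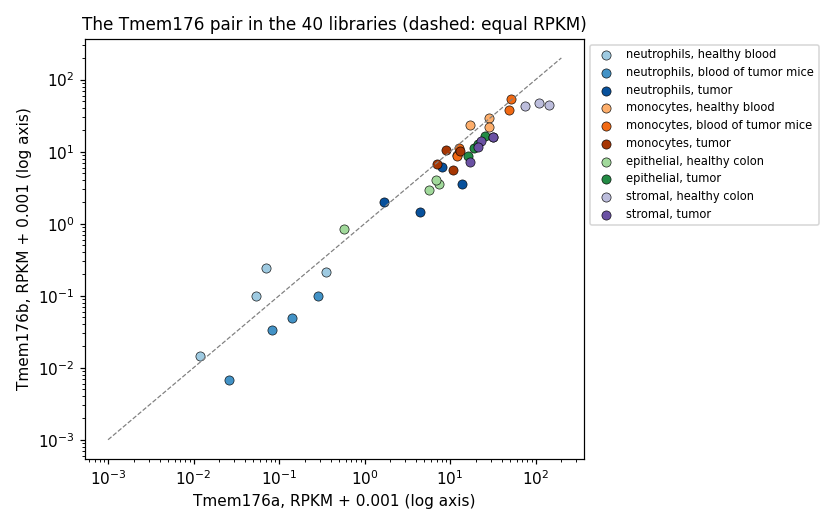
Tmem176b against Tmem176a (both RPKM + 0.001, log axes) in the 40 libraries, coloured by group, with a dashed line at equal RPKM. The blood neutrophil libraries lie at the lower left, with at most 0.349 RPKM of Tmem176a, and healthy stromal libraries lie at the upper right below the line, where Tmem176a exceeds Tmem176b.

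The ratio of Tmem176a to Tmem176b, which the choice of the genes did not use, was above 1 in most tissue libraries. It ran from 1.53 to 1.9 in tumor epithelial cells, 0.679 to 2.1 in healthy epithelial cells, 1.6 to 2.36 in tumor stromal cells, 1.72 to 3.17 in healthy stromal cells and 0.843 to 3.86 in tumor neutrophils. Monocytes lay closer to an even ratio, with 0.727 to 1.34 in healthy blood, 0.956 to 1.35 in blood of tumor-bearing mice and 0.851 to 1.94 in tumor. In 3 comparisons of the mean log2 ratio by a two-sided exact permutation test of 4 against 4 libraries, in which the smallest p is 0.0286, none passed. Tumor minus healthy epithelial cells gave 0.22 (p = 0.914, adjusted 0.914, exact permutation test), tumor minus healthy stromal cells -0.23 (p = 0.4, adjusted 0.6, exact permutation test) and healthy epithelial minus healthy stromal cells -0.63 (p = 0.171, adjusted 0.514, exact permutation test). In blood neutrophils only 1 library of each group had at least 10 counts of both genes, so the ratio was not tested there.

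Ms4a8a, found in alternatively activated macrophages and in intestinal epithelium, had a level pattern unlike the other Ms4a members. It was highest in monocytes from blood of tumor-bearing mice, at 13.8, 26.3, 20.2 and 10.4 RPKM (17.7 ± 7.04, SD, n = 4), and next in healthy epithelial cells, at 13.7, 18.7, 17.9 and 4.37 RPKM (13.7 ± 6.56). Tumor monocytes (6.37 ± 3.09) and healthy blood monocytes (6.18 ± 1.77) followed, and no library of any remaining group reached the lowest of the healthy blood monocytes. Tumor epithelial cells (1.13 ± 0.883), tumor stromal cells (1.12 ± 0.438) and tumor neutrophils (0.991 ± 1.5) overlapped each other.

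Ms4a4c and the Ms4a6 genes were monocyte genes in these data. Ms4a6d, a macrophage membrane protein, stood at 84.8, 88.7, 80.1 and 94 RPKM in tumor monocytes, at 106, 107, 24.6 and 63.7 RPKM in healthy blood monocytes and at 46.8, 42, 52 and 54.4 RPKM in monocytes from blood of tumor-bearing mice. No library outside the monocyte groups exceeded 3.63 RPKM of Ms4a6d. The other 3 stood in the order healthy blood, blood of tumor-bearing mice, tumor. The means of Ms4a6c in this order went from 66.5 ± 29.4 through 37 ± 5.23 to 19.3 ± 3.62 RPKM, those of Ms4a6b from 33.7 ± 15.6 through 15.6 ± 0.704 to 7.82 ± 1.1 RPKM and those of Ms4a4c from 52.9 ± 20.5 through 20.9 ± 6.71 to 13.7 ± 5.62 RPKM. For Ms4a6b no neighbouring groups in this order overlapped, for Ms4a6c the healthy and tumor-bearing blood groups overlapped, and for Ms4a4c both neighbouring pairs overlapped. Outside monocytes, Ms4a4c reached 1.82, 1.03, 0.866 and 4.39 RPKM in healthy stromal cells. Ms4a7, known from mature macrophages, had its highest group means in tumor stromal cells (0.287 ± 0.0983 RPKM), healthy blood monocytes (0.216 ± 0.229), tumor monocytes (0.208 ± 0.195) and monocytes from blood of tumor-bearing mice (0.203 ± 0.183), which all overlapped.

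By the likeness of log2(RPKM + 1) over the 40 libraries, among 4897 other genes with a group mean of at least 5 RPKM, the genes nearest to Ms4a6b were Gm10212 (Pearson r 0.991), Ly86 (0.988) and Ccr2 (0.983), and those nearest to Ms4a6c were Gm10212 (0.988), Ccr2 (0.983) and Ly86 (0.982). Ccr2 is the receptor that brings monocytes out of bone marrow. Gm10212 itself shared windows of 50 bases with Ms4a6b and Ms4a6d. Among the genes near to Ms4a6d were Ms4a4a (0.985) and the scavenger receptor gene Msr1 (0.980), and Ms4a4c lay nearest to Ms4a4b (0.982), Tlr9 (0.978) and Gm10212 (0.976). Likeness was lower for the remaining members. Tmem176a was nearest to Cdc42bpb (0.932), Aplp2 (0.922) and Hsf1 (0.921), Tmem176b to Zscan26 (0.920), Aplp2 (0.917) and Rras (0.915), Ms4a8a to Coro2a (0.872), Me2 (0.858) and Tep1 (0.844), and Ms4a7 to C1qb (0.721), H2-Aa (0.623) and H2-Ab1 (0.617). Among the members, the r of Ms4a6b with Ms4a6c was 0.989, and that of Tmem176a with Ms4a8a 0.304. These correlations are descriptions over libraries that share cell types.

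Ms4a6b and Ms4a6c, which had the closest profiles among the members, share 117 exonic windows of 50 bases, 5.85% of those of Ms4a6c and 2.57% of those of Ms4a6b, and how reads of such windows were shared between them is not given in the sources used here. The sequences before their RefSeq starts (GRCm38.p6) are shown here 5′ to 3′, up to the first annotated UTR base, with capitals marking the runs of at least 12 bases that both windows hold. There were 2 such runs, 36 bases in all, the longest of 24. The Ms4a6c sequence is chr19:11469118-11469365 and the Ms4a6b sequence chr19:11518309-11518452, both on the plus strand. The sequence before Ms4a4c, chr19:11407411-11407660 on the plus strand, is shown with capitals marking GAGGAA, the core letters bound by PU.1, a factor of myeloid cells.
Ms4a6c: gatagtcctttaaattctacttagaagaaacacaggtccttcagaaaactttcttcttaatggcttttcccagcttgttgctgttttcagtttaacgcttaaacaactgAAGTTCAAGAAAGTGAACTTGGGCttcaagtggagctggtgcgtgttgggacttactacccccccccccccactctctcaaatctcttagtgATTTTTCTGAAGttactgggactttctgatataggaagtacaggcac
Ms4a6b: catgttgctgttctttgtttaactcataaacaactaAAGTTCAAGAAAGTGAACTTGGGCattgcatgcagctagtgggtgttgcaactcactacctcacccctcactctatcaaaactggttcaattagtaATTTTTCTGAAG
Ms4a4c: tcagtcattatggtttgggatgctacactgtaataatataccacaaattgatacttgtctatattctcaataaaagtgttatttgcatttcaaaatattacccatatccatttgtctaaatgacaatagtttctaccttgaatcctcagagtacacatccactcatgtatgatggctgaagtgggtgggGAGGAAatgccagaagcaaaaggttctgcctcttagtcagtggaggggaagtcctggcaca
GAGGAA, searched on both strands in the 250 bases before each start, occurred in the windows of 3 of the 7 members that RefSeq windows matched. These were Ms4a4c and the overlapping windows of Tmem176a and Tmem176b, which hold the same letters. It occurred in 23.3% of all 32851 windows of this length. That is a share of windows, whereas the 7 members had 11 windows between them. The shares are therefore not alike, and a match here is a description only.

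In healthy blood, all 8 genes were lower in neutrophils than in monocytes, and no neutrophil library reached the lowest monocyte library for any of them. Tmem176a was 0.0695, 0.349, 0.0109 and 0.0521 RPKM in the neutrophils and 17, 28.7, 28.2 and 12.2 RPKM in the monocytes, and Tmem176b was 0.245, 0.211, 0.0135 and 0.0967 against 23.4, 29.8, 22 and 9.11 RPKM. Ms4a6d was 0.121, 0.0255, 0.0359 and 0.32 against 106, 107, 24.6 and 63.7 RPKM. Ms4a8a was at 1, 8, 1 and 1 counts in the healthy blood neutrophils and at 4.96, 4.54, 8.36 and 6.86 RPKM in the monocytes.

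By edgeR's quasi-likelihood test, with a gene called at a Benjamini-Hochberg adjusted p under 0.05 and a log2 fold change beyond 1.5 in size, the 8 genes were called lower in neutrophils. All but Ms4a6b, which had 61, 59, 47 and 162 counts in the neutrophil libraries, entered the test through their monocyte counts. The highest neutrophil library held 36 counts of Tmem176a, 8 of Ms4a8a and 2 of Ms4a7. When at least 10 counts were required in every library, 1 call was left, that of Ms4a6b. How many were called, and in which direction, was therefore largely set by the filter and is given as a description. The same holds for the adjusted p of the genes other than Ms4a6b. Among the 15033 genes tested, 37.1% were called and 20.4% were called lower in neutrophils, and the 2 groups did not overlap, in that direction, for 38.9%. The log2 fold change was -8.45 (SE 0.92, adjusted p 7.72e-05 by edgeR) for Ms4a6d, -7.91 (SE 0.73, adjusted p 3.01e-05) for Ms4a4c, -7.51 (SE 0.59, adjusted p 1.29e-05) for Ms4a6c and -6.23 (SE 0.59, adjusted p 3.47e-05) for Ms4a6b. For the Tmem176 pair it was -6.75 (SE 0.77, adjusted p 9.70e-05) and -6.53 (SE 0.70, adjusted p 7.13e-05), and for Ms4a8a -7.54 (SE 0.58, adjusted p 1.24e-05). Ms4a7, at 2 counts or fewer in each neutrophil library, was 47.2-fold higher in monocytes by pooled counts (95% exact interval 20 to 147, for counting error only) and was called (adjusted p 0.00342), but was not called on log2(RPKM + 1), where its adjusted p was 0.0667. Of the 13 other Ms4a genes, 3 had enough counts to be fitted, through monocyte counts. These were Ms4a4a, Ms4a4b and Ms4a4d, with at most 3, 48 and 15 counts in a neutrophil library, so their lower level in neutrophils was likewise largely set by the filter.

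The change between blood and tumor, for which the genes were chosen, is described first in neutrophils. Tmem176a was 0.0251, 0.285, 0.139 and 0.0812 RPKM in neutrophils from blood of tumor-bearing mice and 8.14, 13.7, 1.67 and 4.44 RPKM in tumor neutrophils. Tmem176b was 0.00567, 0.0968, 0.0476 and 0.0329 RPKM in blood and 6.15, 3.55, 1.98 and 1.45 RPKM in tumor. Ms4a8a was at 2 counts or fewer in the blood libraries and at 3.23, 0.181, 0.449 and 0.107 RPKM in tumor, which is 320, 20, 50 and 12 counts. For these 3 genes the lowest tumor library was higher than the highest blood library, as it was for 13.6% of all genes tested. Replicate 1 carried most of Ms4a8a, while for Tmem176a replicate 2 was the highest.

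The log2 fold changes in the edgeR fit were 5.99 (SE 1.02) for Tmem176a and 6.27 (SE 0.89) for Tmem176b. By pooled counts Ms4a8a was 68.7-fold higher in tumor. That value rests on 402 tumor counts, of which 320 came from replicate 1, against 5 counts in blood. Without tumor neutrophil replicate 1, whose epithelial marker level was 87%, the fitted values were 6.10 and 6.05, and that of Ms4a8a went from 6.18 to 4.54. Without tumor neutrophil replicate 2 that of Tmem176a was 4.92 and that of Tmem176b 5.89. The mitochondrial share of counts was 37.5%, 33.2%, 18.1% and 17% in tumor neutrophil replicates 1 to 4 and 9.36% to 16.8% in the blood libraries, with no overlap. The neutrophil markers stood, as a percentage of the tumor neutrophil mean, at 16.5 in replicate 1 and at 116 to 140 in the other 3. The part of either in these changes was not tested. Most of the monocyte genes were low in tumor neutrophils. Ms4a6d was 1.5, 0.00702, 0.364 and 0.281 RPKM there (log2 fold change 1.60, SE 1.40, from 0.51 without tumor replicate 1 to 3.82 without blood replicate 4) and Ms4a6b 0.0853, 0.142, 0.039 and 0.0426 RPKM (-0.10, SE 0.98). Ms4a6c was 0.287, 3.03, 0.203 and 0.0826 RPKM, and its log2 fold change of 3.79 (SE 1.52) became 0.81 without replicate 2. In that library BE692007, which covers most of Ms4a6c, had 7 counts against 176 of Ms4a6c.

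The same libraries allow other cell types to be set beside these values. As a percentage of the tumor monocyte mean, tumor neutrophil replicates 1 to 4 held 1.72, 0.00807, 0.419 and 0.323 of Ms4a6d, whereas they held 81.7, 137, 16.7 and 44.6 of Tmem176a and 74.6, 43.1, 24 and 17.5 of Tmem176b. For Ms4a8a the percentages were 50.7, 2.84, 7.05 and 1.69. Ms4a6c stood at 15.7% in replicate 2, and Ms4a7, a gene of low counts, at 38.8% and 39.4% in replicates 1 and 4. The macrophage markers stood at 25.4, 4.99, 5.47 and 6.89% of the tumor monocyte mean in replicates 1 to 4, against 1.04 to 2.82% in neutrophils from blood of tumor-bearing mice, and the monocyte markers at 6.42, 1.9, 0.884 and 0.834%, against 0.82 to 6.12%. The part of monocyte or macrophage RNA in the neutrophil changes was not tested.

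Markers of epithelial cells were not near 0. All 15 passed 1 RPKM in at least 1 tumor neutrophil library, and their sum ran from 15.3 to 246 RPKM there, against 0.691 to 1.62 RPKM in neutrophils from blood of tumor-bearing mice, where Phgr1 was at 0 counts. If RNA of tumor epithelial cells were present at the marker level of each library, it would carry 17.9, 2.39, 3.56 and 0.986 RPKM of Tmem176a and 10.7, 1.43, 2.13 and 0.59 RPKM of Tmem176b into replicates 1 to 4. The carried values were above the measured ones in replicates 1 and 3 for both genes. In replicates 2 and 4 they were 17.4% and 22.2% of the measured Tmem176a and 40.3% and 40.8% of the measured Tmem176b. Taking healthy epithelial cells as the reference, the carried values of Tmem176a were 3.09, 0.485, 0.484 and 0.12 RPKM. Those of Tmem176b were 1.72, 0.271, 0.27 and 0.0669 RPKM, and for both genes they lay below the measured ones in all 4 libraries. For Ms4a8a the carried values were 0.982, 0.131, 0.195 and 0.0541 RPKM, below the measured ones in all 4 libraries. With healthy epithelial cells as the reference, which hold far more Ms4a8a, they were 8.28, 1.3, 1.3 and 0.321 RPKM, above the measured ones in all 4. The part of epithelial RNA in these changes was not tested.

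**Figure D3:**
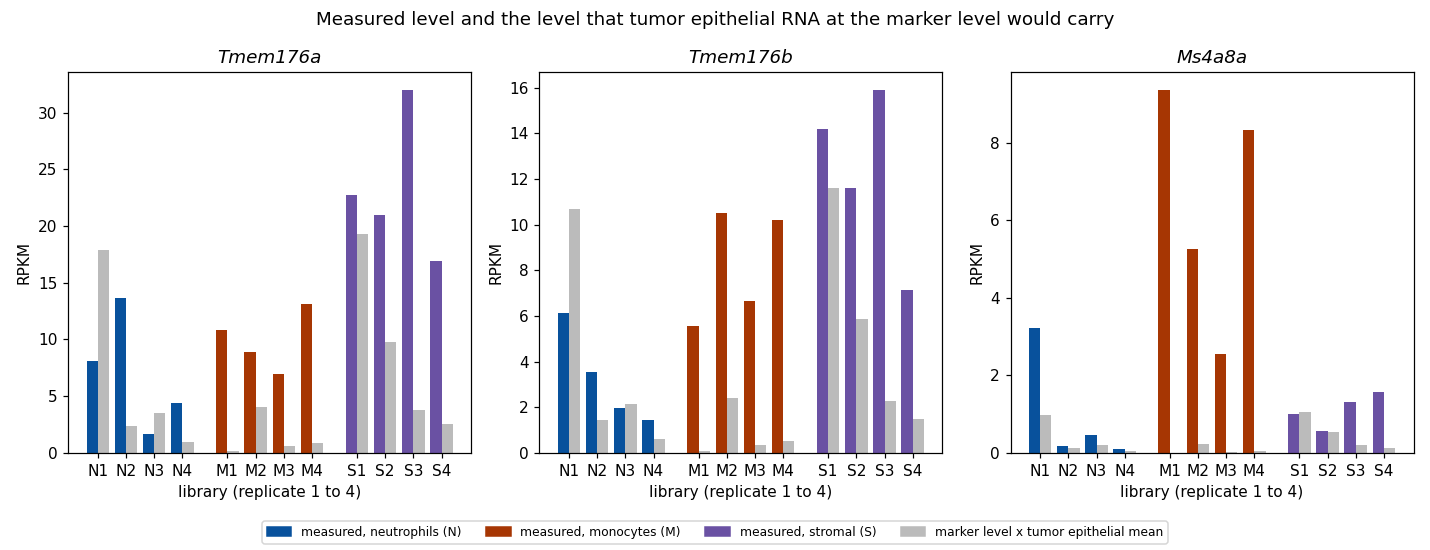
Measured RPKM (coloured bars) of Tmem176a, Tmem176b and Ms4a8a in the 4 tumor neutrophil (N), tumor monocyte (M) and tumor stromal (S) libraries, beside the RPKM (grey) that tumor epithelial RNA at each library's marker level would carry. Grey exceeds the measured bar for the Tmem176 pair in N1 and N3 and stays below it in N2, N4 and in all monocyte libraries.

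In monocytes the pair and Ms4a8a lay in the other direction. Tmem176a was 49.2, 52.2, 11.9 and 12.7 RPKM in blood of tumor-bearing mice and 10.8, 8.94, 6.98 and 13.1 RPKM in tumor, and Tmem176b was 37.4, 54.6, 8.83 and 11.2 against 5.58, 10.5, 6.66 and 10.2 RPKM. Ms4a8a was 13.8, 26.3, 20.2 and 10.4 RPKM in blood and 9.36, 5.27, 2.54 and 8.32 RPKM in tumor. For the Tmem176 pair, blood replicates 1 and 2 lay above every tumor library, and blood replicates 3 and 4 lay within or near the range of the tumor libraries. For Ms4a8a the groups did not overlap, nor did they, on the lower side, for 16.5% of all genes tested.

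The log2 fold changes were -1.40 (SE 0.48) for Tmem176a, -1.52 (SE 0.52) for Tmem176b, -1.24 (SE 0.42) for Ms4a8a, -0.75 (SE 0.18) for Ms4a6b, -0.69 (SE 0.22) for Ms4a6c and -0.37 (SE 0.33) for Ms4a4c. Above 0 were Ms4a7 with 0.25 (SE 1.04) and Ms4a6d with 1.08 (SE 0.17). For Ms4a6d all 4 tumor libraries (80.1 to 94 RPKM) lay above all 4 blood libraries (42 to 54.4 RPKM), as for 10.6% of all genes. The carried epithelial level in tumor monocytes was 0.127 to 4.03 RPKM for Tmem176a, lower than the measured level in each of the 4 libraries.

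The neutrophil change minus the monocyte change, in a fit of the 16 libraries, was 7.28 (SE 1.10) for Tmem176a, 7.68 (SE 0.97) for Tmem176b and 7.26 (SE 1.17) for Ms4a8a on the log2 scale. Without tumor neutrophil replicate 1 the values were 7.40, 7.49 and 5.70, and without replicate 2 they were 6.25, 7.35 and 7.54.

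**Figure D4:**
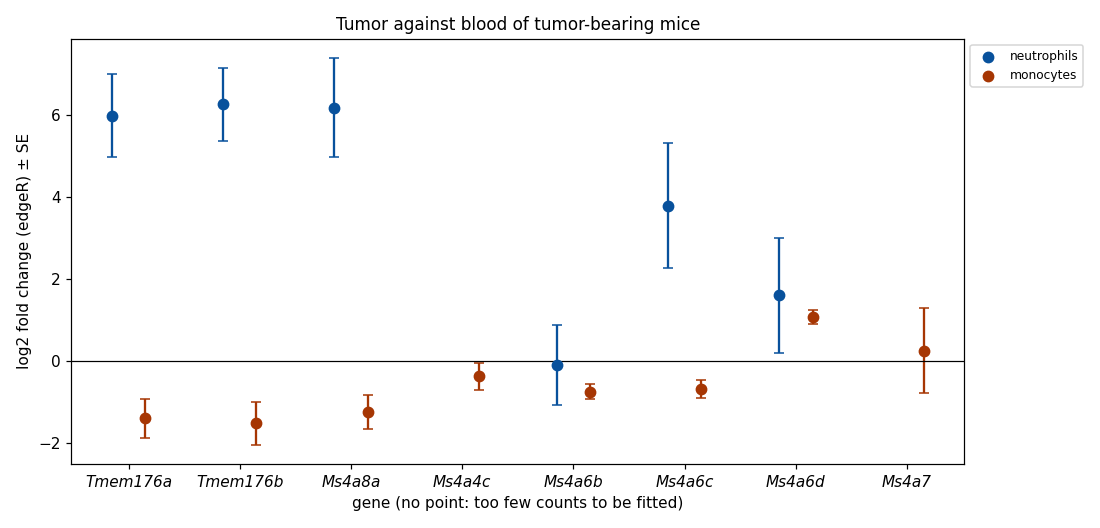
Log2 fold change (edgeR, ± SE) from blood of tumor-bearing mice to tumor for each gene, in neutrophils and in monocytes, given as a description. Tmem176a, Tmem176b and Ms4a8a stand between 5.99 and 6.27 in neutrophils and between -1.52 and -1.24 in monocytes, and Ms4a6d stands at 1.08 in monocytes.

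Blood of tumor-bearing mice was also set against healthy blood. In monocytes, Ms4a8a was 13.8, 26.3, 20.2 and 10.4 RPKM in tumor-bearing mice and 4.96, 4.54, 8.36 and 6.86 RPKM in healthy mice, with no overlap (log2 fold change 1.62, SE 0.34), and Ms4a6b was 14.9, 15.9, 16.4 and 15 against 34.7, 55.4, 22.8 and 22 RPKM, again with no overlap (-1.01, SE 0.29). Over all genes tested, groups did not overlap for 2.3% on the higher and 5.06% on the lower side. The log2 fold change was -1.23 for Ms4a4c, -0.75 for Ms4a6c, -0.52 for Ms4a6d, 0.64 for Tmem176a, 0.51 for Tmem176b and 0.10 for Ms4a7. In neutrophils 3 of the 8 genes had enough counts to be fitted. These comparisons share the blood libraries of tumor-bearing mice with the contrast that chose the genes, and are given as a description.

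In epithelial cells, the Tmem176 pair was higher in tumor than in healthy colon, and Ms4a8a was lower. Tmem176a was 19.2, 16.4, 25.6 and 21.2 RPKM in tumor epithelial cells and 5.65, 7.38, 6.77 and 0.567 RPKM in healthy ones, and Tmem176b was 11.1, 8.64, 16.7 and 12.8 against 2.94, 3.52, 4.09 and 0.835 RPKM. Ms4a8a was 0.542, 0.423, 2.35 and 1.2 RPKM in tumor and 13.7, 18.7, 17.9 and 4.37 RPKM in healthy epithelial cells. No library of the groups overlapped for any of the 3. Healthy replicate 4 was the lowest of its group for all 3 genes. Its mitochondrial share was 83.9%, against 48.6% to 67.4% in the other 3, and its epithelial marker level was 46.1%, against 150% to 216%. Their part in these values was not tested.

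Of the 8 genes, 4 had enough counts to be fitted. Tmem176a and Tmem176b were called higher and Ms4a8a lower. Ms4a7 was also called lower, but entered the test through the healthy libraries, with 10, 26, 14 and 48 counts against 1, 2, 12 and 4 in tumor, and when at least 10 counts were required in every library, 1 lower call was left. Called genes made 15.4% of the 16085 tested, 7.52% higher and 7.88% lower in tumor, and groups did not overlap for 20.6% of genes on the higher and 2.44% on the lower side. Tmem176a rose by a log2 fold change of 1.64 (SE 0.29, adjusted p 0.00214 by edgeR) and Tmem176b by 1.54 (SE 0.17, adjusted p 1.75e-04). Both lay close to the fold limit. Without healthy replicate 4 the change of Tmem176a was 1.44, and without healthy replicate 2 that of Tmem176b was 1.47, under the limit in both cases. Ms4a8a fell by 4.30 on the log2 scale (SE 0.40, adjusted p 6.02e-05 by edgeR). Ms4a7 fell by 3.95 (SE 0.97, adjusted p 0.0141), but stood at only 0.0732 ± 0.0299 RPKM in healthy and 0.0124 ± 0.0133 RPKM in tumor epithelial cells, and was not called without tumor replicate 1 (adjusted p 0.0502) or 4 (0.0531). In a fit of all 40 libraries, which share a single estimate of the spread, Tmem176a (adjusted p 0.0849), Tmem176b (0.0586) and Ms4a7 (0.0675) were not called, and Ms4a8a was. Of the other Ms4a genes, 3 were fitted, and Ms4a12, a gene of colon epithelium that entered the test through the healthy libraries (at most 9 counts in a tumor library), was called lower in tumor (log2 fold change -5.27, SE 0.94, adjusted p 0.00253).

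In stromal cells the Tmem176 pair had the opposite direction. Tmem176a was 22.7, 21, 32 and 16.9 RPKM in tumor and 74.6, 143, 111 and 32.1 RPKM in healthy stromal cells, without overlap, as for 17.3% of all genes on the lower side, and Tmem176b was 14.2, 11.6, 15.9 and 7.14 against 43.3, 45, 48 and 15.8 RPKM. Ms4a6d was 1.48, 0.431, 2.51 and 3.63 RPKM in tumor and 0.139, 0.04, 0.222 and 0.621 RPKM in healthy cells. For Tmem176b and Ms4a6d the groups overlapped, in both cases through healthy replicate 4.

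All 8 genes were fitted here, and Ms4a6d alone was called (log2 fold change 3.26, SE 0.87, adjusted p 0.0487 by edgeR), where 8.4% of 19081 genes were called, 3.39% higher and 5.01% lower in tumor. The call did not hold throughout. The adjusted p of Ms4a6d ran from 0.0218 to 0.128 as each library was left out, and the call was lost without healthy replicate 1, 2 or 3 or tumor replicate 1, 3 or 4. Tmem176a (log2 fold change -1.61, SE 0.44, adjusted p 0.0542) and Tmem176b (-1.27, SE 0.39, adjusted p 0.0767) were not called, and both were without healthy replicate 4, at -1.88 (adjusted p 0.015) and -1.51 (adjusted p 0.0204). Ms4a8a (log2 fold change 2.08, SE 1.02, adjusted p 0.249) and Ms4a7 (2.77, SE 1.51, adjusted p 0.294) were not called either, and had adjusted p of 0.0255 and 0.00572 without that library. Ms4a7 then had 0, 1 and 0 counts in healthy stromal cells against 98, 104, 51 and 53 in tumor. It entered that fit through the tumor libraries, so its adjusted p there is given as a description. Ms4a8a then had 3, 22 and 8 counts in healthy stromal cells and also entered through the tumor libraries, so its adjusted p there is likewise a description. Ms4a4c gave -2.05 (adjusted p 0.192), or -3.26 (0.0475) without tumor replicate 4, Ms4a6b 1.43 (0.315) and Ms4a6c 1.75 (0.115). Ms4a4d was the single other Ms4a gene called, lower in tumor at -4.84 (SE 0.75, adjusted p 0.00791), of 3 fitted.

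Other cell types moved with these stromal values. All 6 genes of the fibroblast list passed 1 RPKM in at least 1 library of each group. In tumor the list stood at 1.17% to 3.85% of its healthy level. All 9 macrophage markers were measured. In at least 1 library, 6 passed 1 RPKM in tumor and 4 in healthy stromal cells. Their summed levels were 8.42 to 18.5 and 4.99 to 10 RPKM. The endothelial markers stood at 1.24, 2.55, 122 and 140% of the healthy stromal mean in tumor stromal replicates 1 to 4 and at 104, 117, 148 and 18.1% in healthy ones. The neutrophil markers stood at 0.599, 0.18, 18.2 and 8.67% of the tumor neutrophil mean in tumor and at 0.122 to 0.616% in healthy stromal cells. The mitochondrial share was 55.4, 62.9, 27.4 and 24.8% in tumor and 15.6 to 24.9% in healthy stromal cells. The carried epithelial level of Tmem176a was 19.3, 9.79, 3.79 and 2.51 RPKM in tumor stromal replicates 1 to 4. For Ms4a8a it was 1.06 and 0.537 RPKM in replicates 1 and 2, against 1 and 0.565 RPKM measured, and 0.208 and 0.138 RPKM in replicates 3 and 4, against 1.32 and 1.58 RPKM measured. Without tumor replicates 1 and 2, Ms4a6d was at 3.87 (adjusted p 0.0402) and Tmem176a at -1.63 (adjusted p 0.178) by edgeR. The part of these cell types and of the mitochondrial share in the results was otherwise not tested.

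**Figure D5:**
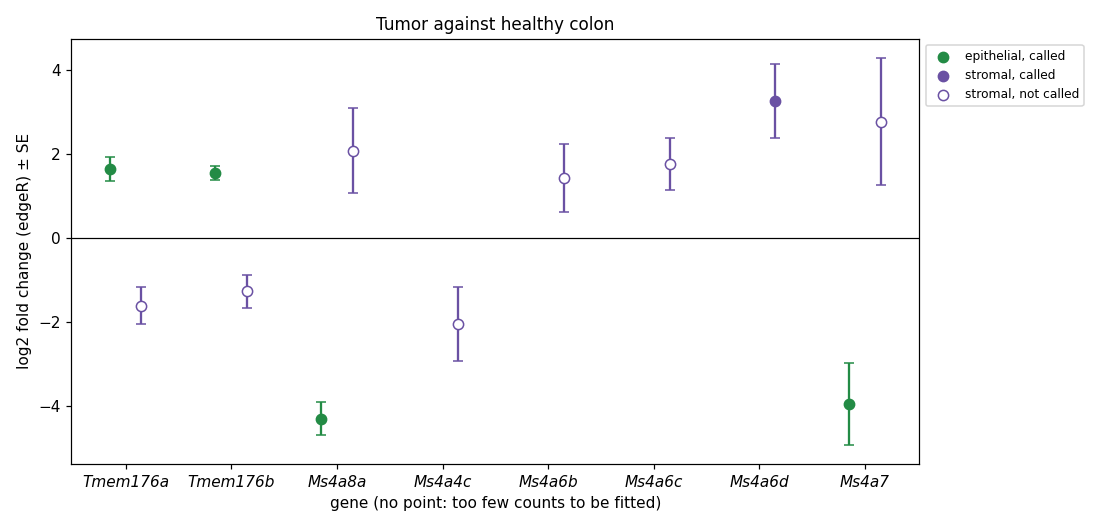
Log2 fold change (edgeR, ± SE) from healthy colon to tumor for each gene, in epithelial and in stromal cells, with filled points for called genes. The epithelial values are 1.64 and 1.54 for the Tmem176 pair and -4.30 for Ms4a8a, while the stromal values of the pair, not called, are -1.61 and -1.27.

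The difference between the epithelial and the stromal change was fitted directly, as an interaction over the 16 colon libraries chosen after seeing the data. It was called for 5 of the 8 genes, where 14.1% of 20901 genes were called, 6.81% higher and 7.25% lower. The 3 lower calls were Ms4a8a, Ms4a6d and Ms4a7, each under 10 counts in some libraries. When at least 10 counts were required in every library, 0 lower calls were left. The count of calls was therefore partly set by the filter and is given as a description. The difference was 3.25 (SE 0.55, adjusted p 0.00126 by edgeR) for Tmem176a and 2.81 (SE 0.42, adjusted p 5.18e-04) for Tmem176b, and -6.37 (SE 1.16, adjusted p 0.00188) for Ms4a8a. The remaining calls, Ms4a6d (-5.66, SE 1.69, adjusted p 0.0338) and Ms4a7 (-6.66, SE 1.97, adjusted p 0.0318), were less steady. As each library was left out, the adjusted p ran from 0.0211 to 0.149 for Ms4a6d and from 1.92e-04 to 0.0721 for Ms4a7, whereas it did not exceed 0.00623 for the other 3. Without tumor stromal replicates 1 and 2, whose epithelial marker levels were the highest, Ms4a7 had an adjusted p of 0.0891, and by limma-voom Ms4a6d had one of 0.104. Ms4a6b (-3.10, adjusted p 0.134), Ms4a6c (-2.79, adjusted p 0.14) and Ms4a4c (1.29) were not called.

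Healthy epithelial and stromal cells differed too. Ms4a8a was 13.7, 18.7, 17.9 and 4.37 RPKM in epithelial and 0.0189, 0.174, 0.0878 and 1.02 RPKM in stromal cells, a log2 fold change of 6.30 (SE 1.07, adjusted p 0.00158 by edgeR). It entered the test through the epithelial libraries, with 1356, 2434, 1590 and 772 counts against 3, 22, 8 and 121 in stromal cells. When at least 10 counts were required in every library, 0 higher calls were left, so its call is given as a description. Tmem176a and Tmem176b had the reverse order, with log2 fold changes of -3.50 (SE 0.53, adjusted p 8.73e-04) and -2.89 (SE 0.36, adjusted p 3.30e-04). Ms4a4c was also called lower in epithelial cells (-4.49, SE 1.22, adjusted p 0.0162), but entered the test through the stromal libraries. It had 3, 1, 0 and 10 counts in epithelial and 309, 126, 80 and 503 in stromal cells, so its call was largely set by the filter. The other 4 members were not called, but Ms4a6b was without healthy epithelial replicate 4 (-2.61, adjusted p 0.0455) and Ms4a7 was without healthy stromal replicate 4 (7.32, adjusted p 0.00479). In those fits Ms4a6b had 8, 6 and 3 counts in epithelial cells, and Ms4a7 had 0, 1 and 0 in stromal cells. Each entered through the cell type in which it was higher, so these calls are given as a description. Of all genes, 30.9% of 18468 were called, 11.5% higher and 19.4% lower in epithelial cells. Of the 13 other Ms4a genes 4 were fitted. Ms4a12, at 0 counts in the stromal libraries, was called and was at least 50.2-fold higher in epithelial cells against a floor of 3 counts per library, and Ms4a4b (-5.06) and Ms4a4d (-8.04), each with at most 4 counts in an epithelial library, were called lower. These 3 entered the test through the cell type in which they were higher.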

How the data were processed

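The deposited tables held expected counts, as estimated by the authors per gene (99.6% of non-zero values were not whole), and RPKM values from the same libraries, whose scale against the library totals varied from 0.642 to 1.55. Amplified cDNA of sorted cells was sequenced, and per the labels bcl2fastq, Bowtie2, limma and build mm10 were used. How reads of overlapping or similar genes were shared is not given in the sources used here. Gene symbols were matched for 45143 of 45706 genes. Groups followed the labels, and 4 libraries made each group. The titles name animals and the same animals recur across cell types. No fit paired libraries by animal, so p-values measure the spread between these libraries as if they were independent.

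Expected counts were rounded and tested with edgeR 4.0.16 in R 4.3.3 (TMM scaling, filterByExpr, robust quasi-likelihood F test, 2 groups per fit). Genes were called at a Benjamini-Hochberg adjusted p under 0.05 over all genes tested and a log2 fold change beyond 1.5. The 8 genes, the other Ms4a genes and the 12 marker lists were chosen with earlier results of these data known, and all 8 genes were named in every comparison. Likeness named the 3 genes nearest to each, of which 1 is not reported here. The epithelial marker level was the median, over the list, of a library's RPKM as a percentage of the tumor epithelial mean. The Tmem176 ratio was tested by exact permutation (scipy 1.17.1, Python 3.11), in libraries with at least 10 counts of both genes. The scripts were tested on simulated data. Alternatives were limma-voom (limma 3.58.1), DESeq2 1.42.0, other filters, limma on log2(RPKM + 1) or log2(RPKM + 0.1), all 40 libraries in a single fit, exclusion of mitochondrial genes, a replicate block and leaving out each library. The epithelial minus stromal interaction and the fits without tumor stromal replicates 1 and 2 were added after seeing the data. Positions came from GENCODE M21 and sequences from RefSeq (GRCm38.p6). The protein sequences were not used here.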

Additional observations from a re-analysis of the deposited data

Results flagged for a closer look

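In 8 of the 80 sets of 4 libraries (8 genes, 10 groups), or 10%, a single library lay far from the other 3 by Dixon's rule. The rule gives about 1 in 20 by chance for independent sets of normally spread values. RPKM values near 0 need not be spread that way, and the sets share libraries, so the 10% shows no excess. Healthy stromal replicate 4 was such a library for 3 genes. Its Tmem176b was 15.8 RPKM with the next at 43.3, its Ms4a8a 1.02 RPKM with the next at 0.174, and its Ms4a7 0.211 RPKM with the next at 0.0017. The epithelial marker level of this library was 14.9%, against 0.236% to 0.498% in the other healthy stromal libraries, and the part of epithelial RNA in these values was not tested.

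In tumor neutrophils, Ms4a8a was 3.23 RPKM in replicate 1 with the next library at 0.449, and Ms4a6c was 3.03 RPKM in replicate 2 with the next at 0.287. Ms4a8a in healthy blood neutrophil replicate 2 was 0.0489 RPKM, or 8 counts, with the next at 0.0075. Ms4a6d was 0.501 RPKM in replicate 4 of neutrophils from blood of tumor-bearing mice with the next at 0.0617, and 0.369 RPKM in tumor epithelial replicate 3 with the next at 0.0807.

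The interaction in edgeR between epithelial and stromal change, chosen after seeing the data, was called for 5 genes. The log2 difference was 3.25 for Tmem176a, 2.81 for Tmem176b, -6.37 for Ms4a8a, -5.66 for Ms4a6d and -6.66 for Ms4a7. The calls of Ms4a6d and Ms4a7 were lost as some single libraries were left out. Ms4a6d had too few counts to be fitted in epithelial cells alone, and Ms4a7 had 1, 2, 12 and 4 counts in tumor epithelial cells. Ms4a8a had 3, 22, 8 and 121 counts in healthy stromal cells. When at least 10 counts were required in every library, 0 lower calls were left.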

How the results depend on the processing

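Counts of the 8 genes called are given here for the tested comparisons. Requiring at least 10 counts in every library, which removes genes that are at 0 in a group, left 1 lower in healthy blood neutrophils than in monocytes, 1 lower in tumor epithelial cells, 0 higher and 1 lower in tumor stromal cells, 0 higher in healthy epithelial than stromal cells and 0 lower for the epithelial minus stromal change. With all 40 libraries in a single fit, 0 were higher and 1 lower in tumor epithelial cells. In tumor stromal cells, 3 were higher by limma-voom, 2 by DESeq2, 0 with no filter, 0 by limma on log2(RPKM + 1), 2 on log2(RPKM + 0.1) and 0 without mitochondrial genes, and 1 was lower by DESeq2, 1 on log2(RPKM + 1) and 2 on log2(RPKM + 0.1). Limma-voom put 2 higher in healthy epithelial than stromal cells. Limma on log2(RPKM + 1) and log2(RPKM + 0.1) left 1 lower in tumor epithelial cells, and the former 1 lower for the epithelial minus stromal change. With the replicate block, 3 were higher and 1 lower in tumor stromal cells and 2 higher in healthy epithelial than stromal cells. The block followed the replicate number and not the animal. By their titles, some same-numbered libraries share an animal, such as replicate 4 of healthy epithelial and of healthy stromal cells. Others share an animal under different numbers, such as tumor epithelial replicate 1 and tumor stromal replicate 3. The correlations of the deviations of same-numbered libraries ran from -0.151 to 0.251. Pairing by animal was not tested. Leaving out each library gave 8 to 8 genes lower in healthy blood neutrophils, 1 to 2 higher and 1 to 2 lower in tumor epithelial cells, 0 to 3 higher and 0 to 2 lower in tumor stromal cells, 1 to 2 higher and 3 to 4 lower in healthy epithelial than stromal cells, and 2 to 2 higher and 1 to 3 lower for the epithelial minus stromal change. It moved the log2 ratio of the Tmem176 pair from -0.15 to 0.39 in tumor against healthy epithelial cells, from -0.35 to -0.06 in stromal cells and from -0.8 to -0.26 between healthy epithelial and stromal cells. No called value changed sign. Among uncalled ones, in healthy epithelial against stromal cells, Ms4a6d turned to -0.09 on log2(RPKM + 1), to -0.39 on log2(RPKM + 0.1) and ranged from -1.0 to 2.70 as libraries were left out, and Ms4a6c ranged from -2.05 to 0.01. Ms4a4c, for the epithelial minus stromal change, ranged from -0.03 (without tumor epithelial replicate 3) to 3.38. The cause of these moves was not tested. Low counts limit Ms4a7 in all groups and the other genes in blood neutrophils. They also limit Ms4a4c, Ms4a6b, Ms4a6c and Ms4a6d in epithelial cells, and Ms4a4c in tumor neutrophils. In most tumor neutrophil libraries they limit Ms4a6b, Ms4a6c, Ms4a6d and Ms4a8a too. Ms4a8a, Ms4a6c and Ms4a6d are limited by low counts in most healthy stromal libraries.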
